A study of Mus musculus with 36 samples.

Results

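The 41 genes described here encode proteins of the presynaptic vesicle and of transmitter release. They were taken by symbol from a list of names, among 55421 genes in the count table of mouse hippocampal slices. The rule uses no expression value, though the list was drawn up with earlier results of these data known. All 41 were found by their mouse Ensembl identifier, and all 41 passed the filter on low counts, which kept 19477 genes. By role, 9 are vesicle proteins, 5 are calcium sensors, 9 belong to the SNARE fusion machinery, 8 to the active zone, 3 to the Rab3 group and 3 to endocytosis, 2 are a transporter and a synuclein, and 2 are neurexins.

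The mice were wild-type C57BL/6 mice (WT), or mice of line 41 (T41B), an amyloid model in which a Thy1 cassette drives human APP with the London and Swedish mutations. At 13 months of age all began 3 months of oral gavage with vehicle (VEH) or with BD10-2 (BD), a ligand that the series' title describes as partially agonistic at TrkB and TrkC, the receptors of BDNF and NT3, and they were 16 months old when slices were taken. Slices of the right hippocampus were then given theta-burst stimulation (3 trains of 10 bursts, each of 4 stimuli at 100 Hz, the bursts 200 ms apart) or, as noSTIM controls, a sham procedure of the same length, and frozen immediately. Total RNA was sequenced after ribosomal RNA removal. There were 4 mice in each vehicle group (WT sham, WT stimulated, T41B sham, T41B stimulated), 3 in each WT BD10-2 group and 5 in each T41B BD10-2 group, 32 samples from 18 mice, of which 14 gave both slices. Thy1 drives expression in neurons, and the labels name 1 transgenic line.

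A synaptic vesicle is filled by a transporter, docked at the active zone by Rab3, RIM and Munc13 proteins, and fused when calcium binds a synaptotagmin and the SNARE proteins zipper together. NSF and SNAP proteins then take the SNARE complex apart, and dynamin, amphiphysin and synaptojanin help to retrieve the membrane. Theta-burst stimulation is a standard way to induce long-term potentiation in hippocampal slices, and loss of presynaptic terminals is a known feature of amyloid models.

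Total expected counts ranged from 11597555 to 28125842 per library (36 libraries). For 4 combinations of mouse and slice 2 libraries carried equal labels, and their counts were added. These pairs differed by more than sampling noise (chi-square per degree of freedom 8.10 to 31.6, against 6.90 to 77.0 for 62 pairs of different mice within a group), so neither was a copy of the other. Their values lie within the range of different mice, so that they come from the same slice rests on the labels alone. Thy1, whose sequence is part of the transgene cassette, separated the genotypes without overlap, at 253 to 403 CPM in 16 WT libraries and 918 to 2504 CPM in 20 T41B libraries. The lowest T41B value belonged to 1 of the 2 libraries labelled as the stimulated slice of Mouse1592, the other of which held 1936 CPM. Whether the lower library is labelled rightly cannot be told here, and leaving it out changed none of 82 member calls. Markers of the labelled tissue were found in all 32 samples, among them Prox1 of dentate granule cells (75.7 to 202 CPM) and Fibcd1 of CA1 pyramidal cells (66.5 to 166 CPM). The thalamic gene Gbx2 was at 0 in 17 of 32 samples. The other thalamic and habenular markers listed were above 0 in every sample, among them Rora (58.1 to 91.7 CPM), Prkcd (11.1 to 37.0 CPM) and Tac2 (0.180 to 1.39 CPM).

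Levels are given as CPM, counts scaled to the TMM-adjusted library size. To compare genes, CPM was divided by the exon length in kilobases, in the sham slices of WT vehicle mice (mean ± SD, n = 4). On that scale the most abundant member was Cplx2, a complexin that binds the assembled SNARE complex, at 234 ± 14.4 CPM per kb. It was followed by Slc17a7, the vesicular glutamate transporter of hippocampal pyramidal cells, at 212 ± 27, and Dnm1, the dynamin that cuts vesicles from the membrane, at 194 ± 24. Cplx2 differed from Slc17a7, and Slc17a7 from Dnm1, by less than the larger of their SDs. Vamp2 (145 ± 15.8), Snap25 (142 ± 15.7), Syp (139 ± 17.7), Syt1 (134 ± 10.7) and Syn1 (131 ± 18.3), which are core vesicle and fusion proteins, came next and did not separate beyond their SD. At the other end stood isoforms with restricted expression in the brain: Unc13c (7.17 ± 1.28), Synpr (6.85 ± 1.48), Syt2 (4.89 ± 1.05), Rab3b (4.58 ± 0.831), Sv2c (4.38 ± 1.0), Syn3 (1.97 ± 0.695) and Cplx3 (1.1 ± 0.290).

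The first question was whether theta-burst stimulation changed these genes. Averaged over the 4 combinations of genotype and treatment, 31 of 41 members were lower in stimulated than in sham slices and 1, Sv2c, was higher, by edgeR's quasi-likelihood test at an adjusted p below 0.05. Of all genes tested, 24.6% were called lower and 22.2% higher in that comparison. The median log2 fold change of the members was -0.22, and that of all genes -0.03. The changes were small: the 25 members with the smallest absolute change among those called lower fell by 0.14 to 0.38 on the log2 scale, and the other 6 by 0.52 to 0.96. The mitochondrial share of the counts, one sign of RNA and slice quality, moved with stimulation as well: it was 2.00 to 4.38% in sham slices (median 2.96%) and 2.36 to 5.40% in stimulated ones (median 3.08%), and higher in the stimulated slice of 13 of 14 mice, by a median of 0.377 percentage points. The stimulated slice of Mouse1563 had both the highest share (5.40%) and the lowest mean of log2(CPM + 1) over the members (7.05), and without that mouse 31 members were still lower and 1 higher. The part of the mitochondrial share in the fall was not tested. In bulk tissue, fewer terminals or cells of a type and less RNA per cell cannot be told apart.

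Within single combinations fewer members passed the test. In WT vehicle mice 3 of 41 were lower and 0 higher, where 4.1% of all genes were called lower and 8.21% higher. In WT BD10-2 mice 3 were lower and 0 higher (all genes 2.58% lower, 6.29% higher). In T41B vehicle mice 5 were lower and 0 higher (all genes 9.82% lower, 11.7% higher), and in T41B BD10-2 mice 8 were lower and 0 higher (all genes 9.52% lower, 13.3% higher). Log2 fold changes were below 0 for 38, 34, 37 and 38 of 41 members in these 4 comparisons, which use different mice, and 32 members were below 0 in all 4. Of all genes tested, 48.7, 48.9, 43.9 and 44.6% were above 0 in these comparisons. With the mouse as a replicate block, a paired fit of the 14 mice with both slices that leaves out the other 4, 10 members were lower in WT vehicle mice (all genes 8.37% lower, 11.2% higher) and 2 in WT BD10-2 mice (all genes 1.73% lower, 4.67% higher). For T41B vehicle mice that fit called 11 lower and Sv2c higher, 12 in all (all genes 12% lower, 15.8% higher), and in T41B BD10-2 mice 17 lower (all genes 8.07% lower, 14.7% higher). Single mice decided the counts of the unblocked fit. In WT vehicle mice it was 0 without Mouse1509 or Mouse1524 and 1 without Mouse1513 or Mouse1522. In WT BD10-2 mice it was 0 without Mouse1565 or Mouse1590, 1 without Mouse1571 or Mouse1579, and 5 without Mouse1551. In T41B vehicle mice it was 3 without any one of its 4 mice, and in T41B BD10-2 mice it was 1 without Mouse1557 or Mouse1564, 2 without Mouse1563 and 4 without Mouse1570. The count in the mean over the combinations stayed between 24 and 33 whichever of the 18 mice was left out.

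The 2 slices of 1 mouse can be compared directly. Of 41 members, 6 were lower after stimulation in every one of 14 mice (Syn1, Syn2, Synpr, Nsf, Napb and Amph), 18 in at least 13 mice and 31 in at least 12. These counts by mouse were not made for all genes, of which 44.9% had a log2 fold change above 0 in the mean over the combinations. Sv2c was lower in 3 of 14 mice, Doc2b in 5 of 14, Unc13a and Nrxn3 in 7 of 14 each, and Bsn in 8 of 14. The spread between mice differed from gene to gene. For Rims3 the difference ran from -2.37 to 0.91 on the log2 scale, and for Napb only from -0.62 to -0.03.

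**Figure D1:**
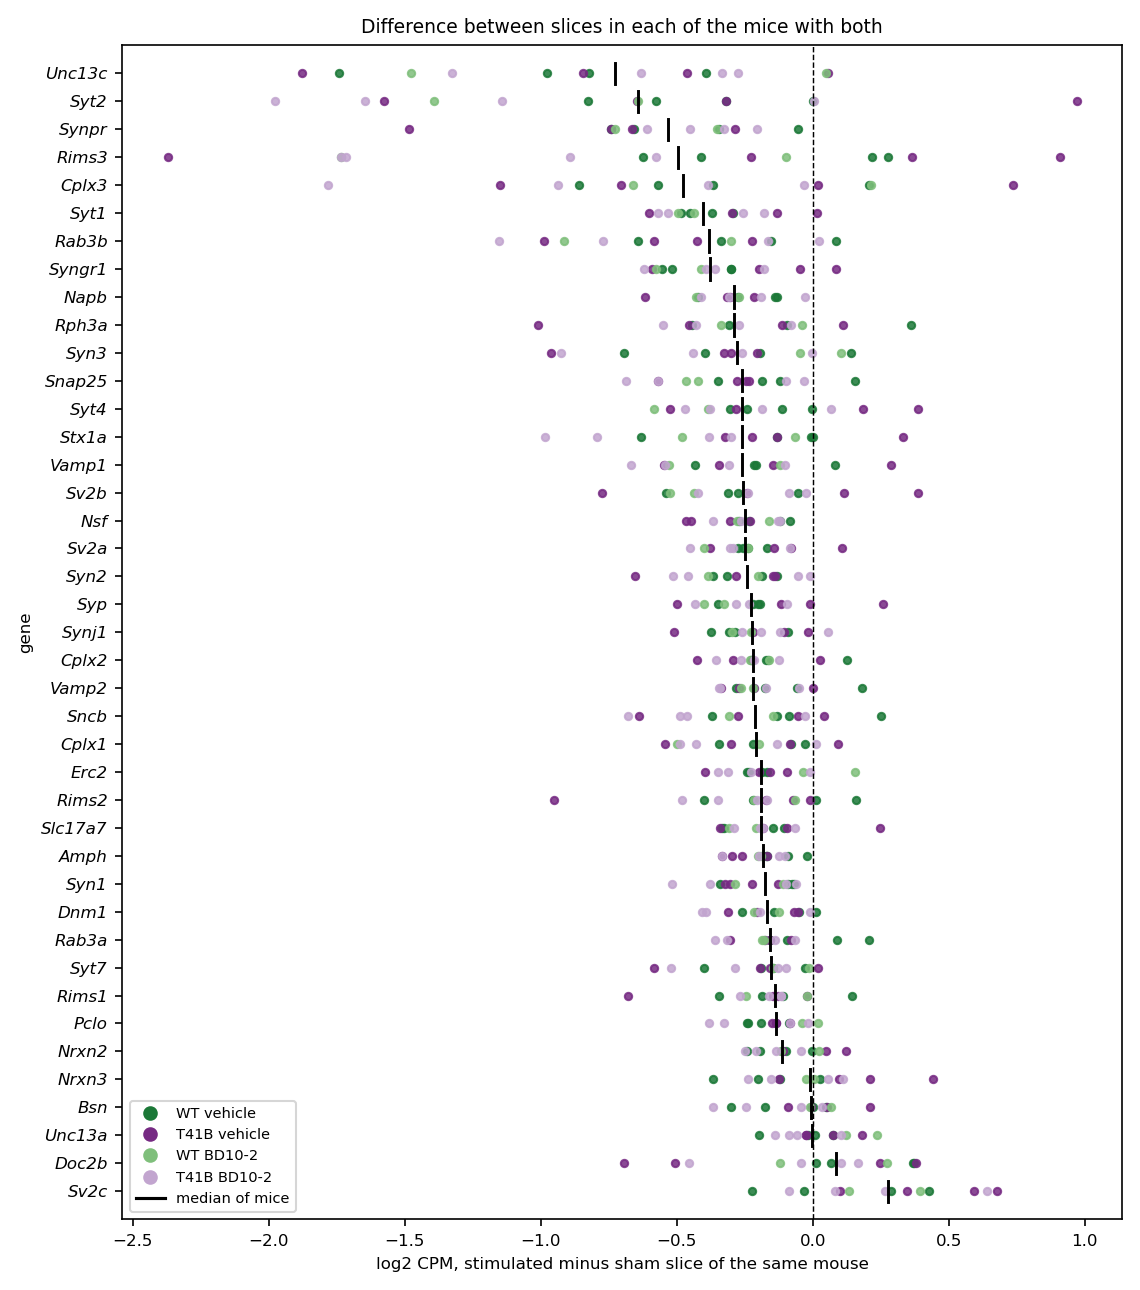
Log2 CPM of the stimulated minus the sham slice of the same mouse for each of 14 mice (points, coloured by genotype and treatment) and the median of the mice (bar), for the 41 members ordered by that median. Points of Napb, Nsf, Syn1, Syn2, Synpr and Amph all lie left of 0, while the median of Sv2c lies right of it at 0.28.

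Among the vesicle proteins 8 of 9 fell and 1 rose in the mean over the combinations. Synpr, synaptoporin, a vesicle protein abundant in the mossy fibre terminals of dentate granule cells, changed most among them, at -0.57 (SE 0.10, edgeR adjusted p = 2.76e-05) on the log2 scale. It was called in T41B vehicle mice (-0.79, SE 0.20) and T41B BD10-2 mice (-0.52, SE 0.17), and in the latter not with the mouse as a block (-0.37, adjusted p = 0.0905). The T41B BD10-2 call was also lost with the groups compared alone and without Mouse1557, Mouse1564, Mouse1570 or Mouse1572. The T41B vehicle call was lost without Mouse1551. Over all slices, Synpr ranged from 48.0 to 79.7, median 60.4, in 16 sham samples and from 25.5 to 58.8, median 44.1, in 16 stimulated ones, all in CPM, so the ranges overlap. Syngr1, synaptogyrin, fell by 0.36 on the log2 scale in the mean and of the single combinations was called in WT vehicle mice (-0.43, SE 0.14, edgeR adjusted p = 0.0491), a call lost when any of 12 mice was left out. With the mouse as a block it was called in WT vehicle (-0.42, adjusted p = 0.00497), WT BD10-2 (-0.49, adjusted p = 0.0368) and T41B BD10-2 mice (-0.36, adjusted p = 0.0112). The synapsins, which hold vesicles in the reserve pool, fell by 0.21 (Syn1), 0.31 (Syn2) and 0.29 (Syn3). Syp, synaptophysin, fell by 0.21, and the vesicle glycoproteins Sv2a and Sv2b by 0.22 and 0.29.

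Sv2c, another vesicle glycoprotein of the family, was the 1 member that rose. Its mean was 42.5 ± 9.72 CPM in sham and 45.6 ± 6.69 in stimulated slices of WT vehicle mice (n = 4 each). In T41B vehicle mice it was 40.6 ± 8.19 and 54.3 ± 3.24 CPM (n = 4 each). The WT BD10-2 slices held 43.1 ± 5.06 and 55.4 ± 5.85 CPM (n = 3 each), and the T41B BD10-2 slices 47.0 ± 6.70 and 52.8 ± 10.3 CPM (n = 5 each). Stimulated means were the higher ones in all 4 combinations, and only in T41B vehicle and WT BD10-2 mice did the values not overlap. Averaged over the combinations it changed by 0.26 (SE 0.08, edgeR adjusted p = 0.00845) on the log2 scale, and no single combination was called without the mouse as a block. The call held in every alternative run, including each mouse left out in turn.

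Promoter sequences were looked up because most members moved the same way. Of the 41 genes, 33 have an entry (46 promoters) in the RefSeq promoter table of GRCm38.p6, and the 250 bases before each start were searched on both strands. The motifs were TTCAGCACC and GGACAGCGC with 1 mismatch allowed, the left and right arm of the RE1 element bound by the neuronal gene repressor REST, and TGACGTCA and TGACGCAA without mismatch, the CRE of the activity-regulated factor CREB and a variant that shares its first 5 letters. The left arm was found in 3 of 46 member promoters, those of Bsn, Sv2c and Syn1 (6.52%, against 6.82% of 32851 promoters). The right arm was found in 4, those of Nsf, Rph3a, Sv2b and Sv2c (8.7%, against 7.31%). Each RE1 match holds 1 mismatch, except that of Syn1. RE1 matches were thus found in members that fell with stimulation as well as in Sv2c. The CRE was found in 1 (2.17%, against 1.55%) and the variant in 0 (against 0.438%). The median GC content was 59.8% in the member promoters and 52.4% in all. A match is a description of the letters and not a site.

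The stretches below show the Sv2c matches, since Sv2c was the member that rose, the CRE match of Syn1, which was lower in every mouse with both slices, and the Sv2b match, since Sv2b differed between genotypes. Capitals mark the match and each run reads 5′ to 3′ along the gene.
Sv2c, RE1 left arm, chr13:96132646-96132706, minus strand: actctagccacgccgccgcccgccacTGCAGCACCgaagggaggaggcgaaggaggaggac
Sv2c, RE1 right arm, chr13:96132726-96132786, minus strand: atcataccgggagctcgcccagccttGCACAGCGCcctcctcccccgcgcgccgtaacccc
Syn1, CRE, chrX:20921044-20921103, minus strand: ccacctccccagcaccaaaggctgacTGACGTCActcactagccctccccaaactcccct
Sv2b, RE1 right arm, chr7:75309341-75309401, minus strand: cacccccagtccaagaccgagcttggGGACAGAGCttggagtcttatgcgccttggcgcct
The Sv2c matches lie 103 to 95 bases before the start and 183 to 175 bases before the start. The Syn1 match lies 159 to 152 bases before the start, and that of Sv2b 113 to 105 bases before the start.

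Of the 5 calcium sensors 4 fell. Syt1 (chr10:108497650-109010982, minus strand), the synaptotagmin that triggers fast synchronous release, had the smallest adjusted p of all members. In WT vehicle mice (Mouse1509, Mouse1513, Mouse1522 and Mouse1524, in that order) Syt1 stood at 1136, 990.0, 1199 and 1139 CPM in sham slices and at 831, 809, 928 and 814 CPM in stimulated ones. In WT BD10-2 mice it was 967, 985 and 1158 CPM in sham slices (Mouse1565, Mouse1571, Mouse1590) and 713, 699 and 832 CPM in stimulated ones (Mouse1565, Mouse1571, Mouse1586). In both WT comparisons every stimulated slice was below every sham slice. In T41B vehicle mice (Mouse1510, Mouse1551, Mouse1553, Mouse1579) the sham slices held 941, 653, 736 and 942 CPM and the stimulated ones 619, 596, 743 and 767 CPM. In T41B BD10-2 mice the values were 856, 837, 732, 811 and 820.1 CPM in sham slices (Mouse1557, Mouse1563, Mouse1564, Mouse1570, Mouse1592) and 579, 493, 679, 669 and 724 CPM in stimulated ones (Mouse1563, Mouse1564, Mouse1570, Mouse1572, Mouse1592). The T41B vehicle groups overlapped, and the T41B BD10-2 groups did not.

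Syt1 fell by 22.9% in the mean over the combinations (-0.38, SE 0.06, edgeR adjusted p = 6.28e-06), and the stimulated slice was lower in 13 of 14 mice. It was called in WT vehicle (-0.40, SE 0.12), WT BD10-2 (-0.47, SE 0.13) and T41B BD10-2 mice (-0.37, SE 0.10), and had -0.26 (SE 0.12) in T41B vehicle mice. The call in WT vehicle mice was lost without Mouse1509, Mouse1522 or Mouse1524, that in WT BD10-2 mice without Mouse1565, Mouse1571 or Mouse1590, and that in T41B BD10-2 mice without Mouse1563. Syt2, the fast sensor of parvalbumin interneurons and brainstem neurons, had the larger change at -0.68 (SE 0.21, edgeR adjusted p = 0.00905), with a call in T41B BD10-2 mice (-1.14, SE 0.38). Syt4 and Syt7, the latter a slow sensor for asynchronous release, fell by 0.26 and 0.16. The Syt7 call was lost with RLE scaling, with no filter on low counts and without any of 8 mice. Doc2b, a high-affinity sensor of spontaneous release, had a log2 fold change of 0.04 and was called in no comparison.

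In the SNARE machinery 8 of 9 fell. Napb (chr2:148693985-148732467, minus strand), the SNAP adaptor through which NSF takes SNARE complexes apart, fell in each of the 14 mice with both slices. In the mouse order given for Syt1, WT vehicle slices held 319, 286, 365 and 291 CPM after sham and 263, 259.8, 272 and 266 CPM after stimulation. In T41B vehicle mice Napb was 296, 226, 265 and 279.9 CPM in sham and 193, 181, 228 and 226 CPM in stimulated slices. The WT groups did not overlap, and in T41B vehicle mice 1 sham slice, that of Mouse1551, lay below the 2 highest stimulated ones. In WT BD10-2 mice Napb was 275, 264 and 333 CPM in sham and 228, 196 and 235 CPM in stimulated slices. In T41B BD10-2 mice it was 264, 275, 213, 215 and 225 CPM in sham and 222, 159.8, 210.4, 173 and 197 CPM in stimulated slices. The WT BD10-2 groups did not overlap, and in T41B BD10-2 mice 1 stimulated slice (Mouse1563) exceeded the 2 lowest sham ones.

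Napb fell by 20.5% in the mean (-0.33, SE 0.06, edgeR adjusted p = 1.99e-05), with calls in WT BD10-2 (-0.40, SE 0.13), T41B vehicle (-0.37, SE 0.11) and T41B BD10-2 mice (-0.31, SE 0.10). With the mouse as a block it was called in WT vehicle (-0.24, adjusted p = 0.0329) and T41B vehicle mice, and not in WT BD10-2 (-0.34, adjusted p = 0.0691) or T41B BD10-2 mice (-0.20, adjusted p = 0.0641). The unblocked call in WT BD10-2 mice held in 16 of 27 alternatives, and in 10 of 18 fits with 1 mouse left out. That in T41B vehicle mice was lost with the groups compared alone and without Mouse1510. That in T41B BD10-2 mice was also lost with no filter on low counts, with the groups compared alone and without Mouse1557, Mouse1564 or Mouse1572. Nsf itself, the ATPase that Napb recruits, fell by 0.25 in the mean and was lower in all 14 mice. The membrane SNARE Snap25 fell by 0.31 and its partner Stx1a by 0.29. The vesicle SNAREs Vamp1 and Vamp2 fell by 0.28 and 0.17. Of the complexins Cplx2 fell by 0.17 and Cplx3 by 0.77 (SE 0.26), the latter at a level of only 0.69 to 6.65 CPM in sham slices. Cplx1 had -0.24 (SE 0.11, edgeR adjusted p = 0.0646), and with the mouse as a block it passed (-0.23, adjusted p = 0.00266).

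Of the 8 active zone genes 6 fell, and the one with the largest change of all members was Unc13c (chr9:73479422-73968966, minus strand), a Munc13 priming factor best known from the cerebellum. The 120 bases before its RefSeq start hold no match to the motifs searched and are shown as the start region of the member that moved furthest.
Unc13c, chr9:73969038-73969157, minus strand: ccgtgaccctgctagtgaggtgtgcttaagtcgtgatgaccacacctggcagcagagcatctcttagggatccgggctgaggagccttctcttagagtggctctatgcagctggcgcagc
In the same mouse order as above, WT vehicle sham slices held 73.3, 49.9, 57.5 and 71.5 CPM of Unc13c and stimulated slices 21.3, 24.8, 43.6 and 40.0 CPM. In T41B vehicle mice the values were 35.1, 18.3, 61.8 and 44.1 CPM in sham and 25.2, 19.1, 16.1 and 24.1 CPM in stimulated slices. The WT vehicle groups did not overlap, while the sham slice of Mouse1551 was already at the stimulated level. In WT BD10-2 mice Unc13c was 41.4, 23.5 and 74.5 CPM in sham and 14.2, 24.3 and 24.2 CPM in stimulated slices. In T41B BD10-2 mice it was 41.2, 41.6, 39.5, 22.3 and 22.8 CPM in sham and 16.0, 25.1, 18.3, 18.2 and 17.9 CPM in stimulated slices. Sham values spread far more than stimulated ones in these last groups, and 1 sham slice of WT (Mouse1571) and 2 of T41B (Mouse1570 and Mouse1592) lay in the range of the stimulated slices.

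Unc13c was the 1 member called in all 4 stimulation comparisons, at -0.96 (SE 0.31) in WT vehicle, -1.15 (SE 0.36) in WT BD10-2, -0.91 (SE 0.32) in T41B vehicle and -0.82 (SE 0.28) in T41B BD10-2 mice. Its mean change of -0.96 (SE 0.16, edgeR adjusted p = 1.38e-05) is a fall by 48.6%. It was lower in 12 of 14 mice. With the mouse as a block the call held in WT vehicle mice and in the mean, and was lost in WT BD10-2 (-0.76, adjusted p = 0.323), T41B vehicle (-0.78, adjusted p = 0.0605) and T41B BD10-2 mice (-0.64, adjusted p = 0.135). With only the larger of the libraries of equal labels, all 4 single calls were lost. They were also lost without 1 mouse: Mouse1509, Mouse1513 or Mouse1524 in WT vehicle, Mouse1522, Mouse1565, Mouse1579, Mouse1586 or Mouse1590 in WT BD10-2, Mouse1553 or Mouse1579 in T41B vehicle, and Mouse1557, Mouse1563, Mouse1564 or Mouse1572 in T41B BD10-2 mice. The call in the mean held under every alternative run.

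**Figure D2:**
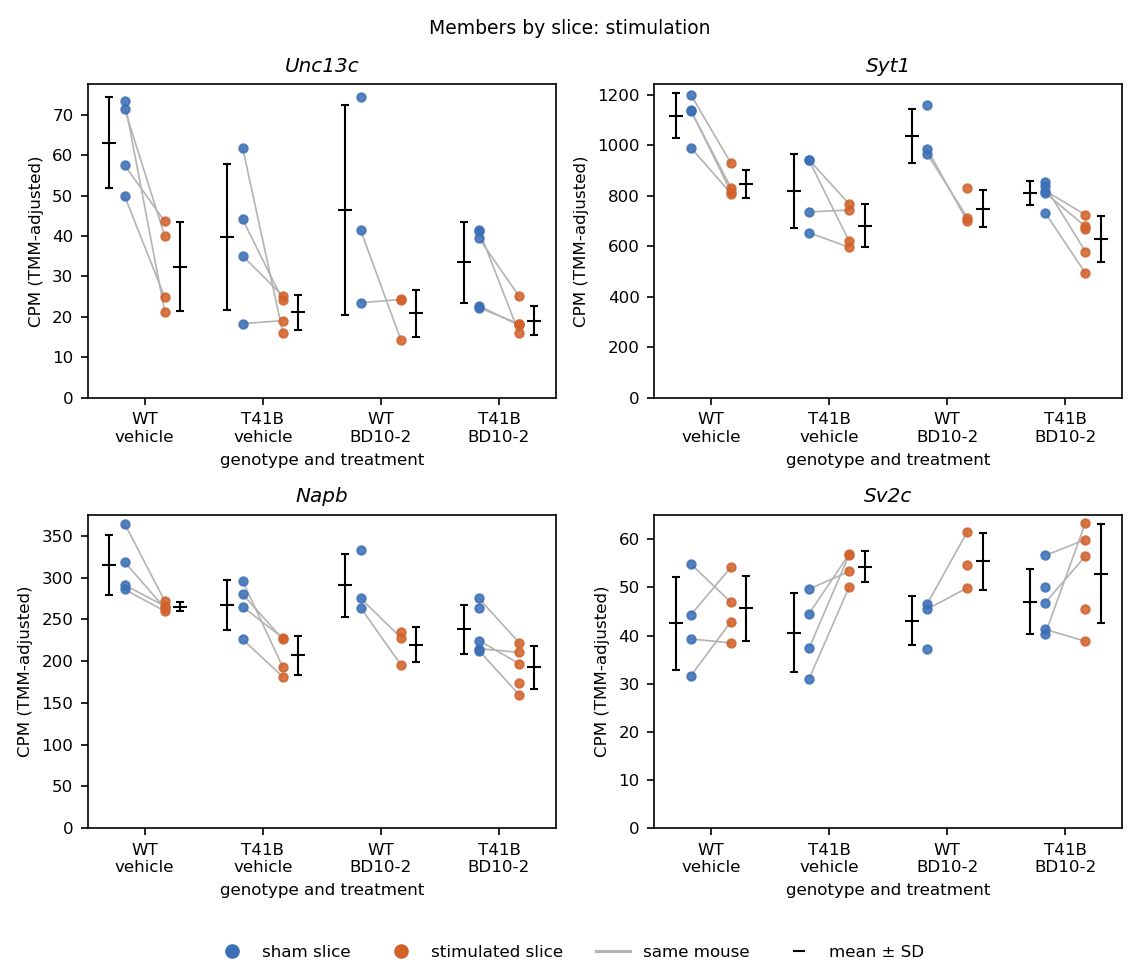
CPM of Unc13c, Syt1, Napb and Sv2c in each slice (blue sham, orange stimulated) by genotype and treatment, with grey lines between slices of the same mouse and mean ± SD beside the points. Unc13c, Syt1 and Napb drop along most lines, and Sv2c climbs along most.

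The other active zone genes changed less. Rims3, a RIM family gene, fell by 0.59 (SE 0.23). Rims2 and Rims1, whose RIM proteins tether vesicles and calcium channels, fell by 0.21 and 0.17. The scaffold Pclo (Piccolo) fell by 0.14 and Erc2, an ELKS scaffold, by 0.15. Bsn (Bassoon), the partner scaffold of Piccolo, had -0.03 (SE 0.07) and Unc13a, the main hippocampal Munc13, 0.05 (SE 0.05), and neither passed. Of the Rab3 group Rab3b fell by 0.52 and the Rab3 effector Rph3a by 0.22. Rab3a, the main Rab3 of forebrain vesicles, had -0.13 (SE 0.08, edgeR adjusted p = 0.153). In endocytosis Synj1 fell by 0.24 and Amph by 0.19, and Dnm1 had -0.16 (SE 0.08, edgeR adjusted p = 0.0898). Slc17a7 fell by 0.17, a call lost under 2 other settings and without any of 11 mice, and Sncb, beta-synuclein, had -0.24 (SE 0.11, edgeR adjusted p = 0.0744). With the mouse as a block Rab3a, Dnm1 and Sncb passed as well, which makes 35 members lower and 1 higher, where that fit called 23.5% of all genes lower and 24% higher. The 7 members called in no comparison of the unblocked fit were Doc2b, Cplx1, Bsn, Rab3a, Dnm1, Sncb and Nrxn2. Over 16 sham and 16 stimulated slices, Doc2b ran from 63.1 to 179 and from 82.5 to 156 CPM, and Bsn from 1039 to 1879 and from 806 to 1611 CPM. Abundant Dnm1 ran from 720.0 to 1095 CPM in sham and from 569.6 to 1099 CPM in stimulated slices. Cplx1 ran from 141 to 319.9 and 113 to 314 CPM, Rab3a from 174 to 258 and 149.9 to 284 CPM, Sncb from 118 to 260.0 and 102 to 238 CPM, and Nrxn2 from 338 to 500.2 and 284 to 437 CPM in the same order. All of these ranges overlap. The neurexins, cell adhesion proteins of the presynaptic membrane, did not pass, with -0.07 (SE 0.06) for Nrxn2 and 0.00 (SE 0.07) for Nrxn3.

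Other calls in the mean over the combinations were also lost without single mice: Rims3 without any of 6 and with the larger library only, Rims1 without any of 5 and with no filter on low counts, Syn3, Vamp2 and Stx1a without any of 4 each, Syn1 and Rph3a without any of 3 each, and Cplx2, Cplx3, Pclo and Erc2 without 1 each, Pclo also with no filter. Mouse1509, Mouse1565 and Mouse1590 were the mice most often involved.

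Large falls were found among the rarest members. The 6 genes with a mean log2 fold change below -0.5 (Unc13c, Cplx3, Syt2, Rims3, Synpr and Rab3b) held ranks 33 to 41 of 41 in CPM per kb. Among the 20 most abundant members per length the changes ran from -0.38 to -0.03 with a median of -0.22, and among the other 21 from -0.96 to 0.26 with a median of -0.26. Calls were spread over both, at 15 of 20 and 16 of 21 lower.

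The second question was how T41B and WT slices differed. In sham slices, averaged over treatments, 10 of 41 members were lower in T41B mice and 0 higher, where 7.11% of all genes were called lower and 10.8% higher. In stimulated slices 9 were lower and 0 higher (all genes 5.81% lower, 10.6% higher). The members' median log2 fold changes were -0.13 and -0.17, against 0.00 and -0.03 for all genes. The 7 members lower in both were Sv2b, Syt1, Syt2, Vamp1, Napb, Pclo and Nrxn3. The sham and stimulated slices come largely from the same mice, so these are not independent samples of mice. The mitochondrial share differed between the genotypes too, at 2.74 to 4.38% in WT (median 3.07%) and 2.00 to 4.28% in T41B sham slices (median 2.73%). In stimulated slices it was 2.91 to 4.88% in WT (median 4.24%) and 2.36 to 5.40% in T41B (median 2.75%). The ranges overlap, and the part of this share in the genotype differences was not tested.

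In the single comparisons, in vehicle sham slices 5 of 41 were lower and 0 higher (all genes 1.24% lower, 5% higher), and in vehicle stimulated slices 1 was lower and 0 higher (all genes 1.05% lower, 4.74% higher). In BD10-2 sham slices 2 were lower and 0 higher (all genes 1.14% lower, 4.29% higher), and in BD10-2 stimulated slices 4 were lower and 0 higher (all genes 2.36% lower, 8.2% higher). Log2 fold changes were below 0 for 35, 36, 32 and 40 of 41 members, and for 28 in all 4. Of all genes tested, 50.3, 45.4, 51.1 and 47.1% were above 0. These counts rest on few mice. That of vehicle sham slices was 0 without Mouse1509, Mouse1522 or Mouse1551, 1 without Mouse1553, 2 or 3 without any of 7 others, and 7 without Mouse1579. The 1 call in vehicle stimulated slices, Snap25, was lost without any of 13 mice, and 4 members were called without Mouse1579. Mouse1564 left out gave 2 calls there. The count of BD10-2 sham slices was 0 without Mouse1565, Mouse1571 or Mouse1590, 1 without any of 4 others and 4 without Mouse1551. That of BD10-2 stimulated slices was 0 without Mouse1565 and 2 without Mouse1563, Mouse1564 or Mouse1571. With 1 mouse left out, the means over treatments called 6 to 14 members in sham and 5 to 10 in stimulated slices, the fewest without Mouse1590 and Mouse1565 respectively.

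Sv2b (chr7:75114894-75309262, minus strand) was called in both sham comparisons. In sham slices of vehicle mice it was 384, 314, 433 and 444 CPM in WT and 337, 183, 214 and 311 CPM in T41B mice. In sham slices of BD10-2 mice it was 315, 335 and 415 CPM in WT and 277, 266, 182, 236 and 229 CPM in T41B mice. The BD10-2 groups did not overlap, and among the vehicle slices 1 T41B value (Mouse1510) lay above the lowest WT value. After stimulation the WT slices held 309, 302, 358 and 305 CPM (vehicle) and 233, 232 and 292 CPM (BD10-2) of Sv2b. The stimulated T41B slices held 197, 198, 281 and 263 CPM (vehicle) and 198, 154, 232, 225 and 216 CPM (BD10-2). Stimulated T41B slices were below all WT ones in both treatments, though the highest T41B and the lowest WT value of the BD10-2 mice differed by less than 1 CPM. The mean change was -0.58 (SE 0.12, edgeR adjusted p = 0.000873) in sham slices and -0.37 (SE 0.12, edgeR adjusted p = 0.0311) in stimulated ones. With batch as a covariate the calls in both sham comparisons and in the stimulated mean were lost. Total count scaling also lost the call in BD10-2 sham slices, and the fit of the groups compared alone that in vehicle sham slices. Without 1 mouse the call was lost for any of 5 mice in vehicle sham slices, any of 7 in BD10-2 sham slices and any of 6 in the stimulated mean. The call in the sham mean held in all 26 alternatives.

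Nrxn3 (chr12:88722876-90334935, plus strand), a neurexin that binds postsynaptic neuroligins and other partners, differed between genotypes and showed no call with stimulation. Sham slices of vehicle mice held 357, 376, 354 and 324 CPM in WT and 307, 259, 187 and 290.3 CPM in T41B mice. Sham slices of BD10-2 mice held 369, 366 and 342 CPM in WT and 257, 242, 236, 276 and 266 CPM in T41B mice. Neither pair of groups overlapped. Stimulated WT slices held 328, 327, 360.2 and 251 CPM (vehicle) and 370.0, 359.5 and 335 CPM (BD10-2). Stimulated T41B slices held 328, 300.2, 255 and 266 CPM (vehicle) and 217, 199.9, 287, 299.8 and 287 CPM (BD10-2). Here the vehicle groups overlapped and the BD10-2 groups did not. The mean change was -0.46 (SE 0.09, edgeR adjusted p = 0.000657) in sham and -0.30 (SE 0.09, edgeR adjusted p = 0.0243) in stimulated slices, and of the 4 single comparisons the one not called was that of stimulated vehicle slices (-0.14, SE 0.13). The Nrxn3 call in the sham mean held in all 26 alternatives. That in vehicle sham slices held in 12 of 26, being lost with total count scaling, no filter on low counts, a batch covariate, the larger library only, the groups compared alone, and without any of 9 mice. The call in BD10-2 sham slices was lost with total count scaling, a batch covariate, and without Mouse1565, Mouse1571 or Mouse1590. That in BD10-2 stimulated slices was lost with the groups compared alone and without Mouse1563, Mouse1564, Mouse1565 or Mouse1571. The call in the stimulated mean was lost with a batch covariate, with the groups compared alone, and without Mouse1509, Mouse1522, Mouse1564, Mouse1565 or Mouse1571.

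Syt1 was lower in T41B mice by 24.3% in sham slices (-0.40, SE 0.08, edgeR adjusted p = 0.00103) and by 17.7% in stimulated ones (-0.28, SE 0.08, edgeR adjusted p = 0.0189). Syt2 had the largest genotype difference, at -0.87 (SE 0.29) and -1.02 (SE 0.30). Its mean in vehicle sham slices was 37.4 ± 8.04 CPM in WT and 17.7 ± 9.29 CPM in T41B mice (n = 4 each). In BD10-2 sham slices it was 36.2 ± 12.4 (n = 3) and 22.9 ± 6.69 CPM (n = 5). Vamp1, the vesicle SNARE of fast-firing interneurons and motor circuits, had log2 differences of -0.45 (SE 0.12) and -0.48 (SE 0.12). Its mean in vehicle sham slices was 75.6 ± 9.72 CPM in WT and 51.4 ± 8.97 CPM in T41B mice, and these groups did not overlap.

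Napb had -0.26 (SE 0.08) and -0.27 (SE 0.08), and Pclo -0.29 (SE 0.07) and -0.31 (SE 0.07). Called in sham slices only were Syngr1 (-0.37, SE 0.10), Syt4 (-0.29, SE 0.10) and Synj1 (-0.30, SE 0.07). Called in stimulated slices only were Snap25 (-0.38, SE 0.10) and Erc2 (-0.25, SE 0.07). In the sham mean Synj1 held in all 26 alternatives, Syngr1 was lost without Mouse1590, and Syt4 was lost with the groups compared alone and without any of 9 mice. The Syt2 call there was lost with a batch covariate, with the larger library only and without any of 5 mice, and that of Napb with a batch covariate and without Mouse1522, Mouse1551 or Mouse1590. In the stimulated mean Snap25 was lost with a batch covariate, Erc2 with the groups compared alone and without Mouse1565, Napb with a batch covariate and without Mouse1565, and Syt1 and Syt2 with a batch covariate and without Mouse1586. Vamp1 and Pclo held in all 26 alternatives of both means. The difference between these means of sham and stimulated slices was not itself tested. The interactions within each treatment, given further on, called none of these members. Unc13a was called in BD10-2 stimulated slices (-0.31, SE 0.09, edgeR adjusted p = 0.0318) and in neither mean, and that call was lost with no filter on low counts, with the groups compared alone and without any of 7 mice. Rims1 was the 1 member with positive values in all 4 genotype comparisons, at 0.23 (SE 0.09, edgeR adjusted p = 0.0708) in sham and 0.16 (SE 0.09, edgeR adjusted p = 0.239) in stimulated slices, and it did not pass.

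**Figure D3:**
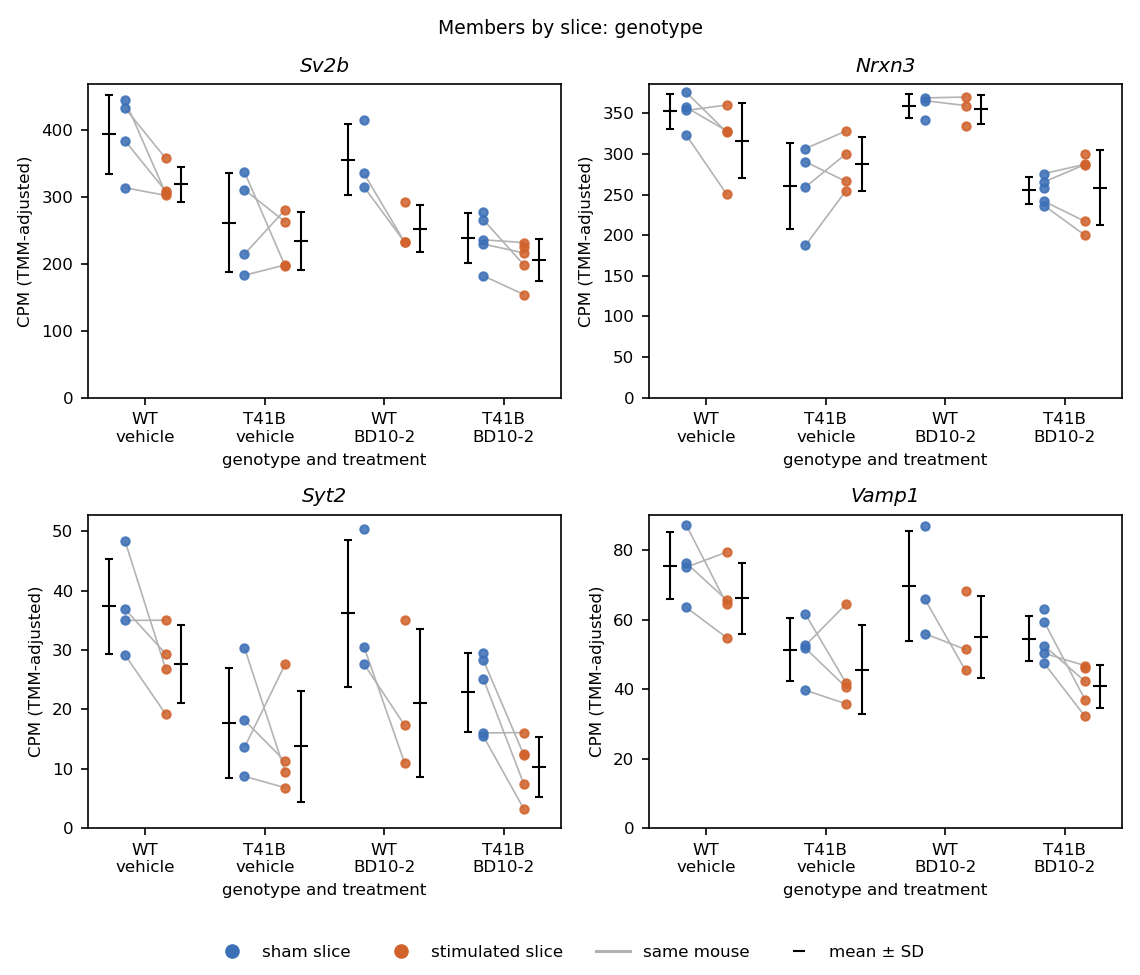
CPM of Sv2b, Nrxn3, Syt2 and Vamp1 in each slice (blue sham, orange stimulated) by genotype and treatment, with grey lines between slices of the same mouse and mean ± SD beside the points. T41B sham slices sit below WT sham slices in both treatments, with overlap for Sv2b (vehicle), Syt2 (both treatments) and Vamp1 (BD10-2).

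The labels give a batch identifier, without saying what it stands for, that divides the mice into 8 batches with 1 treatment each. Genotypes could be compared within 4 batches for sham slices and within 3 for stimulated slices, with 1 or 2 mice of a genotype in each. Of 41 members, 35, 31 and 32 were lower in T41B sham slices in batches A, C and D, and 20 in batch I, with median log2 differences of -0.25, -0.15, -0.31 and 0.01. In stimulated slices the counts were 34 in A, 36 in C and 21 in I (medians -0.40, -0.21 and -0.01). The pooled direction of the list therefore did not hold within batch I, the one with the most mice. Sv2b (-0.85 to -0.36), Nrxn3 (-0.41 to -0.16), Syt1 (-0.50 to -0.27), Vamp1 (-0.78 to -0.21), Syt2 (-1.59 to -0.20), Napb (-0.57 to -0.06) and Pclo (-0.39 to -0.16) were lower in T41B sham slices in all 4 batches. In stimulated slices Nrxn3 was lower in 2 of 3 batches (-0.31 to 0.09), and the other 6 in all 3, though Sv2b only by 0.02 on the log2 scale in batch I.

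With batch as a covariate 8 members remained called in the sham mean, without Syt2 and Napb. In the stimulated mean 3 remained, Vamp1, Pclo and Erc2, without Sv2b, Syt1, Syt2, Snap25, Napb and Nrxn3. Of the 7 members lower in both means, Vamp1 and Pclo thus held in both. The 5 calls in vehicle sham, the 1 in vehicle stimulated and the 2 in BD10-2 sham slices were lost, and the 4 in BD10-2 stimulated slices held. For stimulation, slices of the same mouse share a batch. The covariate kept all 32 calls in the mean over the combinations and added Cplx1 and Dnm1. It kept the 3 calls in WT vehicle and the 5 in T41B vehicle mice. In WT BD10-2 mice it lost Napb and Unc13c of the 3, and in T41B BD10-2 mice it lost Syt2, Vamp1, Snap25, Cplx3, Napb and Unc13c of the 8.

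The third question concerned BD10-2. In the 4 comparisons of BD10-2 with vehicle, edgeR called 0 of 41 members and 0% of all genes, and DESeq2 called 0 members. At an unadjusted p below 0.05 there were 3 members in stimulated WT slices (Syn3, Snap25 and Napb) and 0 in the other 3 comparisons. The median log2 fold changes of the members were -0.10 (WT sham), -0.20 (WT stimulated), -0.10 (T41B sham) and -0.14 (T41B stimulated). Those of all genes were -0.007, -0.010, -0.011 and 0.011. Log2 fold changes were below 0 for 33, 31, 34 and 37 of 41 members in that order. Of all genes tested, 48.1, 47.9, 47.0 and 53.2% were above 0. Treatment and batch cannot be told apart here.

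Whether stimulation acted differently by genotype or treatment was tested as an interaction. For the genotype difference in vehicle mice, the genotype difference in BD10-2 mice and the treatment difference in T41B mice, edgeR and DESeq2 called 0 of 41 members, edgeR called 0% of all genes, and 0 members had an unadjusted p below 0.05. The members' medians were -0.04, -0.03 and -0.02. The larger number of calls in T41B BD10-2 mice is thus not shown to be a larger response. That group also had the most mice, 5 in each arm, and the part of group size in the count was not tested.

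As a description, the mean of log2(CPM + 1) over the 41 members was 7.83 ± 0.10 in WT vehicle sham slices and 7.62 ± 0.15 after stimulation (SD, n = 4 each). It was 7.62 ± 0.18 and 7.40 ± 0.17 in T41B vehicle mice (n = 4 each), and 7.73 ± 0.16 and 7.47 ± 0.15 in WT BD10-2 mice (n = 3 each). In T41B BD10-2 mice it was 7.59 ± 0.04 and 7.27 ± 0.17 (n = 5 each). The stimulated T41B BD10-2 slices had the lowest mean.

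A list of 60 other presynaptic genes, drawn up in the same way, gives the surroundings, with 59 tested. Of these, Slc32a1 and Slc17a6 are also among the GABAergic and the thalamic markers given further on. In the mean over the stimulation comparisons 28 were lower and 5 higher (all genes 24.6% lower, 22.2% higher), with a median log2 fold change of -0.13. The largest falls were in Slc17a6 (-0.88, SE 0.27), the glutamate transporter of thalamic neurons, Sncg (-0.56, SE 0.14), gamma-synuclein, Doc2a (-0.51, SE 0.12), the sister gene of Doc2b, Syt10 (-0.47, SE 0.08) and Mctp1 (-0.47, SE 0.07). The genes that rose were Syt6 (0.87, SE 0.13), Erc1 (0.42, SE 0.04), the sister gene of Erc2, Syt12 (0.23, SE 0.06), Ppfia1 (0.13, SE 0.03), a liprin scaffold, and Snap29 (0.13, SE 0.05). So the paralogues Erc1 and Erc2 moved in opposite directions.

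Between genotypes 16 of these 59 genes were lower and 2 higher in T41B sham slices (median -0.12), and 10 lower and 0 higher in stimulated ones (median -0.12). Of all genes, 7.11% were called lower and 10.8% higher in the sham mean, and 5.81% lower and 10.6% higher in the stimulated mean. In sham slices the largest falls were in Slc32a1 (-0.58, SE 0.14), the vesicular GABA transporter, Rab3c (-0.57, SE 0.11), Unc13b (-0.39, SE 0.08), Slc6a17 (-0.39, SE 0.11) and Cadps (-0.38, SE 0.07), a priming factor of dense-core vesicles. Syt10 (0.32, SE 0.11) and Snapin (0.30, SE 0.08) were higher. In stimulated slices the largest falls were in Slc17a6 (-1.28, SE 0.39), Rab3c (-0.43, SE 0.11), Stxbp5l (-0.42, SE 0.10), Mctp1 (-0.37, SE 0.10) and Cadps (-0.30, SE 0.07).

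Lists of cell markers are given beside the members, and their part in the results was not tested. Their counts are to be read against all genes, of which 24.6% were called lower and 22.2% higher in the mean over the stimulation comparisons. In T41B mice 7.11% were called lower and 10.8% higher in the sham mean, and 5.81% lower and 10.6% higher in the stimulated mean. Counts near these shares, such as those of the dentate, CA1 and CA3 lists and the pan-neuronal list between genotypes, are no result about the lists. Of 13 pan-neuronal genes 7 were lower after stimulation and 0 higher (median -0.17), and 1 was lower in T41B mice in each of the sham and stimulated means (medians -0.09 and -0.18). Their summed level was 3086 to 4048 CPM in sham and 2377 to 4185 CPM in stimulated slices. Of 8 GABAergic markers 5 were lower and 1 higher after stimulation (median -0.26), and 6 were lower in T41B sham slices (median -0.51), with sums of 261 to 351 CPM in WT and 192 to 255 CPM in T41B sham slices, which do not overlap. After stimulation 3 of the 8 were lower in T41B slices (median -0.33), with sums of 227 to 343 CPM in WT and 163 to 243 CPM in T41B. Of 6 dentate granule markers 2 were lower after stimulation (median -0.28), with sums of 216 to 651 CPM and 202 to 508 CPM. The other neuronal lists were mixed. Of 5 CA1 pyramidal markers 2 were higher and 0 lower after stimulation (median 0.04), with sums of 371 to 579 CPM in sham and 417 to 588 CPM in stimulated slices, and 0 were called between genotypes (medians -0.14 and 0.10). Of 6 CA3 and CA2 markers 1 was higher and 2 were lower after stimulation (median -0.11), and of 7 tested thalamic and habenular markers 1 was higher and 3 were lower (median -0.30). None of the pan-neuronal, GABAergic, dentate or CA1 markers was at 0 in any sample.

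Microglial markers moved further than the members. All 8 microglial markers were higher in T41B sham slices (median 1.3) and 7 of 8 were lower after stimulation (median -0.92). Their sum was 251 to 340.4 CPM in WT sham, 540.2 to 1013 CPM in T41B sham, 109.6 to 184 CPM in WT stimulated and 293 to 599 CPM in T41B stimulated slices. All 4 markers of oligodendrocyte precursors were lower after stimulation (median -0.40), with sums of 162 to 257 CPM in sham and 114 to 202 CPM in stimulated slices, while 0 were called in T41B sham slices and 1 was higher in T41B stimulated ones. Of 7 astrocyte markers 6 were higher after stimulation (median 0.29), 5 higher in T41B sham slices and 6 higher in T41B stimulated slices. Of 7 oligodendrocyte markers 0 changed after stimulation and 3 were higher in T41B sham slices. All 9 choroid plexus markers were higher after stimulation in WT vehicle mice (median 3.41), where their sum ran from 14.4 to 1224 CPM in stimulated slices and from 16.3 to 21.5 CPM in sham slices. The T41B vehicle slices had sums from 17.3 to 533 CPM after sham and from 18.5 to 298 CPM after stimulation, and in BD10-2 mice the sum was at most 29.9 CPM. Of these markers 0 of 9 were called in the mean over the stimulation comparisons and 1 was higher in the mean of T41B sham slices (median 1.2). The defining choroid plexus gene Ttr was at 0 in 4 of 32 samples. The members' own sum was 12865 to 17752 CPM in sham and 10139 to 16253 CPM in stimulated slices.

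**Figure D4:**
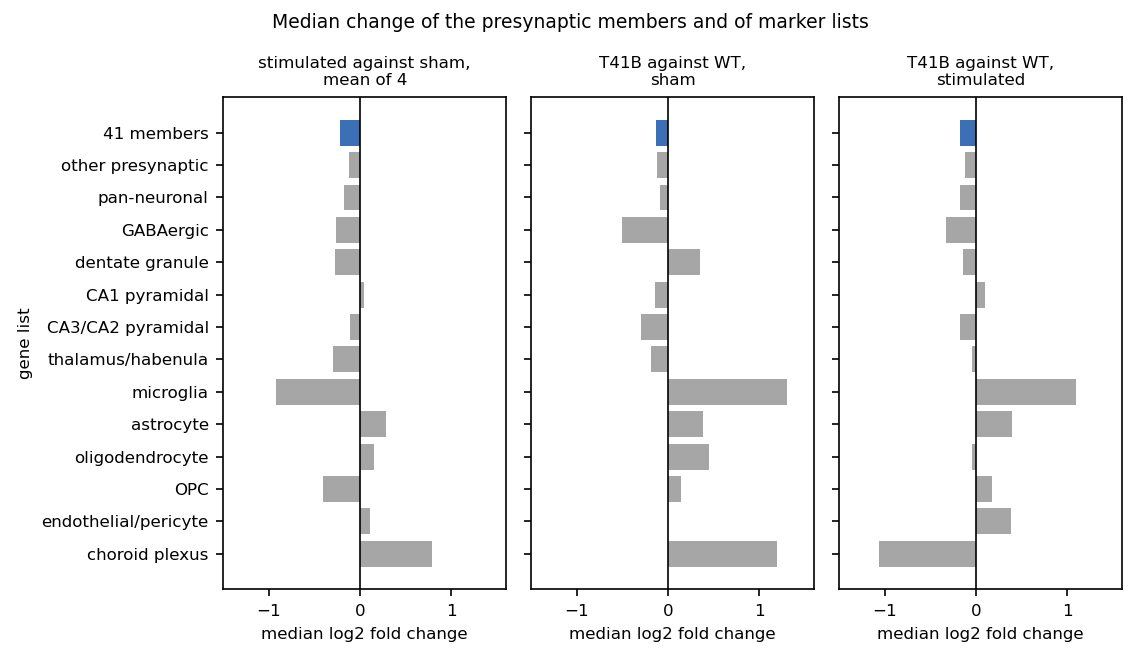
Median log2 fold change (bars) of the 41 members (blue), of 59 other presynaptic genes and of 12 lists of cell markers (grey) in the mean stimulation comparison and in the 2 genotype means. The members' bars (-0.22, -0.13 and -0.17) have the sign of the pan-neuronal and GABAergic bars, and the microglial bar is negative for stimulation and positive for T41B.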

How the data were processed

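RNA of 36 libraries was counted per gene, and the authors deposited 1 table of expected counts (RSEM), with 55421 genes. Per the submitters' processing notes, cutadapt 1.8.1, STAR 2.7.6a, RSEM 1.3.1, featureCounts 1.6 and SAMtools 1.11 were used with the builds GRCm38.p6 and mm10. The annotation release and the strand setting are not given in the sources used here. Without a known strand setting, reads of a member and of an overlapping antisense gene may be mixed.

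Expected counts were rounded to whole numbers, and libraries of equal labels were added, which gave 32 samples. Symbols were matched for 55154 identifiers. All 8 groups entered 1 edgeR 4.0.16 fit (R 4.3.3, quasi-likelihood F test, TMM, filterByExpr with a minimum count of 10), with Benjamini-Hochberg adjustment over 19477 genes and a threshold of 0.05. The script was tested on simulated data. At a simulated log2 change of 0.3 it recovered 4.48% of the changed genes for stimulation in WT vehicle mice and 0% for genotype in vehicle sham slices. In the means it recovered 38.8% (stimulation) and 23.9% (genotype, sham). Changes of that size were thus mostly missed, above all in single comparisons. Alternatives were DESeq2 1.42.0, other scalings and filters, the larger library only, a batch covariate, the groups compared alone, a replicate block and leaving out each mouse. Coordinates and exon lengths come from GENCODE M21 (GRCm38).

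Replicates are separate mice. Slices of the same mouse deviated together (mean correlation of deviations from the group means 0.29, 0.05 to 0.55 over 14 mice, against -0.08 over 52 pairs of different mice), so the mouse number in the labels pairs them. Total counts of the 32 samples ran from 11597541 to 49652829, and these depths limit the precision of the rarest members most.

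Values of every sample are given for members called in at least 3 of 4 stimulation or 2 of 4 genotype comparisons. Elsewhere up to 5 called genes per direction with the largest change are named, and members never called are named with their range. Other members are given by their mean change. The values of Sv2c, Syt2, Vamp1 and Synpr were added after their results were seen. The members and lists were chosen with earlier results of these data known.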

Additional observations from a re-analysis of the deposited data

Results flagged for a closer look

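For the 5 members given in every sample, and for the mean of the 41, 36 sets of values of 4 or 5 mice were examined. In 2 of them a sample lay far from the rest of its group, and chance flags about 1 in 20 groups. In stimulated slices of WT vehicle mice, Sv2b stood at 357.573 CPM in Mouse1522, while the median of the other 3 mice was 305.47 CPM. In stimulated slices of T41B BD10-2 mice, Unc13c stood at 25.1099 CPM in Mouse1564, while the median of the other 4 mice was 18.04 CPM.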

How the results depend on the processing

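The count of 32 members called in the mean over the stimulation comparisons stayed within 28 to 37 under the other settings, and within 24 to 33 with each mouse left out. No direction of a called member reversed under any alternative. Counts of single comparisons moved more, and the cause was not tested. For stimulation, the paired fit with the replicate block gave 10 members in WT vehicle, 12 in T41B vehicle and 17 in T41B BD10-2 mice. Total count scaling gave 8 in T41B vehicle and 23 in T41B BD10-2 mice. It also lowered the median log2 fold change of all genes, from -0.05 to -0.09 and from -0.04 to -0.12 in these comparisons. DESeq2 gave 5 in WT BD10-2 mice, the larger library alone gave 1 in WT vehicle mice, and fitting the groups compared alone gave 1 in T41B vehicle mice. For genotype in vehicle sham slices, the count was 0 with a batch covariate, 2 with the larger library and 1 with the groups compared alone. In vehicle stimulated slices it was 0 with DESeq2's size factors (RLE) in edgeR, 0 with total count scaling, 0 with the groups compared alone and 3 with DESeq2. In BD10-2 sham slices it was 0 with total count scaling, 5 with DESeq2, 1 with a batch covariate, 4 with the larger library and 4 with the groups compared alone. In BD10-2 stimulated slices it was 0 with the groups compared alone, and in the mean over treatments of stimulated slices 3 with a batch covariate. With each mouse left out, stimulation counts ran from 0 to 3 (WT vehicle), 0 to 5 (WT BD10-2), 3 to 7 (T41B vehicle) and 1 to 12 (T41B BD10-2). Genotype counts ran from 0 to 7 (vehicle sham), 0 to 4 (vehicle stimulated), 0 to 4 (BD10-2 sham), 0 to 5 (BD10-2 stimulated), 6 to 14 (sham mean) and 5 to 10 (stimulated mean). Treatment and interaction counts were 0 throughout. The mean of log2(CPM + 1) in T41B BD10-2 sham slices became 7.66 with a pseudocount of 5. The paired fit changed no interaction count. A batch covariate could not be fitted for treatment, and the fit of the groups compared alone was not run for the stimulation mean. Depth limits the rarest members, such as Cplx3, most.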
